A study of Mus musculus with 24 samples.

Results

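Carbonic anhydrases were examined as a family of 9 genes, Car2, Car3, Car4, Car6, Car8, Car9, Car12, Car13 and Car14, found by gene name among the 56941 genes of the deposited tables. The tables held 16 carbonic anhydrase genes in all, and the 9 were chosen with earlier results of these data known. Car6 was picked because it was higher at 1 and 4 Hz in these libraries, so its values in contrasts that set 1 or 4 Hz against control or 10 Hz are given as a description with no test. Of the 9 genes, 8 passed the low-count filter. The exception was Car4, with 1 read in 1 of the 24 libraries, a 4 Hz library.

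C2C12 is a mouse myoblast line that fuses into contractile muscle fibers. Here it carried the genotype ChR2::tdTomato in every sample, controls included, so that blue light opened a cation channel and triggered contraction. Monolayers on fibrin hydrogel were differentiated with horse serum and IGF-1 and were given a daily session of light (30 min) at 1, 4 or 10 Hz, or no stimulation, over about 2 weeks until RNA extraction, with 6 libraries per condition. All tissues came from 1 engineered cell line and were cultured without nerve or blood vessels.

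Carbonic anhydrases interconvert carbon dioxide and bicarbonate with release or uptake of a proton. In muscle, cytosolic and surface enzymes together speed carbon dioxide removal, buffer the acid of contraction and assist lactate export. The family divides by location. Car2, Car3 and Car13 are cytosolic enzymes, Car8 is a cytosolic relative without catalytic activity, Car4 is anchored to the outer membrane surface by a lipid, Car9, Car12 and Car14 span the plasma membrane with the catalytic domain outside, and Car6 is the secreted enzyme known from saliva.

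Library totals ranged from 4085578 to 15194554 estimated counts. All 6 listed skeletal muscle markers were detected, with summed levels, as counts scaled to library depth (CPM), of 5788 to 7313 CPM in control, 7983 to 11227 at 1 Hz, 8038 to 12827 at 4 Hz and 6089.7 to 8953 at 10 Hz. Every 1 and 4 Hz sum exceeded every control sum, while 10 Hz sums overlapped control. Myh3 rose against control by 1.23 under 1 Hz (log2, edgeR adjusted p = 3.985e-05) and 1.26 under 4 Hz (adjusted p = 1.8e-05). Under 10 Hz Myh3 rose by 0.82 (adjusted p = 0.0123). Acta1 rose by 0.78 under 1 Hz (adjusted p = 0.00038) and 0.83 under 4 Hz (adjusted p = 0.00014). Myog rose by 0.85 under 4 Hz (adjusted p = 7.73e-05) and 0.62 under 10 Hz (adjusted p = 0.0142). Ckm, Des and Ttn were not called. Markers of other sources of these enzymes were low but not all absent. Of 6 adipocyte markers, 5 had any read, with a sum of at most 1.09 CPM per library and Cfd at 0. Of 5 red cell markers, 3 had any read and summed to 0.552 to 3.70 CPM, Hba-a1 reaching 3.70 CPM while Hbb-bs and Hbb-bt were at 0. All 5 osteoclast and macrophage markers had reads, and their sums, 2.58 to 7.24 CPM over all libraries, overlapped between conditions. Among them Ctsk fell at 1 Hz by 1.53 ± 0.33 (log2, SE, adjusted p = 0.000916) and at 4 Hz by 1.06 ± 0.31 (adjusted p = 0.00832), Csf1r fell at 4 Hz by 1.33 ± 0.45 (adjusted p = 0.0195), and Acp5 rose at 4 Hz by 0.98 ± 0.31 (adjusted p = 0.0129). All 6 neuron and glia markers had reads, with overlapping sums of 1.39 to 5.74 CPM. All 4 markers of unfused or dividing myoblasts were detected, at 18.3 to 43.5 CPM in control, 22.9 to 35.3 at 1 Hz, 19.4 to 39.8 at 4 Hz and 29.0 to 40.1 at 10 Hz. Pax7, a marker of muscle stem cells, rose by 0.99 ± 0.36 at 1 Hz (adjusted p = 0.0349) and 1.04 ± 0.36 at 4 Hz (adjusted p = 0.023). The proliferation genes Mki67 (1.28 ± 0.46, adjusted p = 0.028) and Top2a (0.69 ± 0.23, adjusted p = 0.0182) rose at 4 Hz, where Myf5 fell by 0.61 ± 0.18 (adjusted p = 0.00879). The part of these cell markers in the results was not tested. Small RNAs without a poly(A) tail, 19 of them listed, summed to 51.0 to 93.9 CPM of the unscaled library total in control, 6.45 to 32.3 at 1 Hz, 8.87 to 26.5 at 4 Hz and 22.9 to 174 at 10 Hz. Control therefore did not overlap 1 or 4 Hz in this measure of library make-up. The sources say that low-input samples were ribodepleted instead of poly(A)-selected but do not name them, and the part of library make-up in the results was not tested beyond a fit with this share as a covariate. Relative to total counts in place of trimmed means (TMM), the all-gene median of the log2 fold changes at 4 Hz against control moved from -0.01 to -0.11, and 35.7% rather than 52.2% of calls were higher. The corresponding shares at 1 Hz against control were 37.1% and 51.0%.

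Levels between genes were compared as TPM, which scales each library to a fixed total of transcripts and corrects for transcript length. Car3, the low-activity isozyme abundant in slow muscle fibers, had the highest mean at 138 TPM and ranged from 59.0 to 240 TPM over the 24 libraries. Car9 followed with a mean of 110 TPM, and Car3 exceeded it in 15 of 24 libraries, so this pair was not separated over all libraries. The order depended on condition. Car9 was above Car3 in every 1 Hz library and below it in every 4 Hz library, and control and 10 Hz were mixed. Car13 averaged 50.5 TPM and lay below Car9 in all 24 libraries. Car6 averaged 23.8 TPM, within a range from 4.56 to 48.0 TPM, and lay below Car13 in 23 libraries. The next 3 genes were close together, at mean levels of 10.5 TPM for Car12, 7.67 TPM for Car14 and 6.51 TPM for Car2. Car14 exceeded Car2 in only 14 of 24 libraries. Car8 averaged 0.474 TPM and Car4 0.00674 TPM. On the CPM scale, which ignores length, Car12 and Car6 exchanged places. The single read of Car4 is under the floor of 3 counts, or 0.016 CPM over all libraries.

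**Figure D1:**
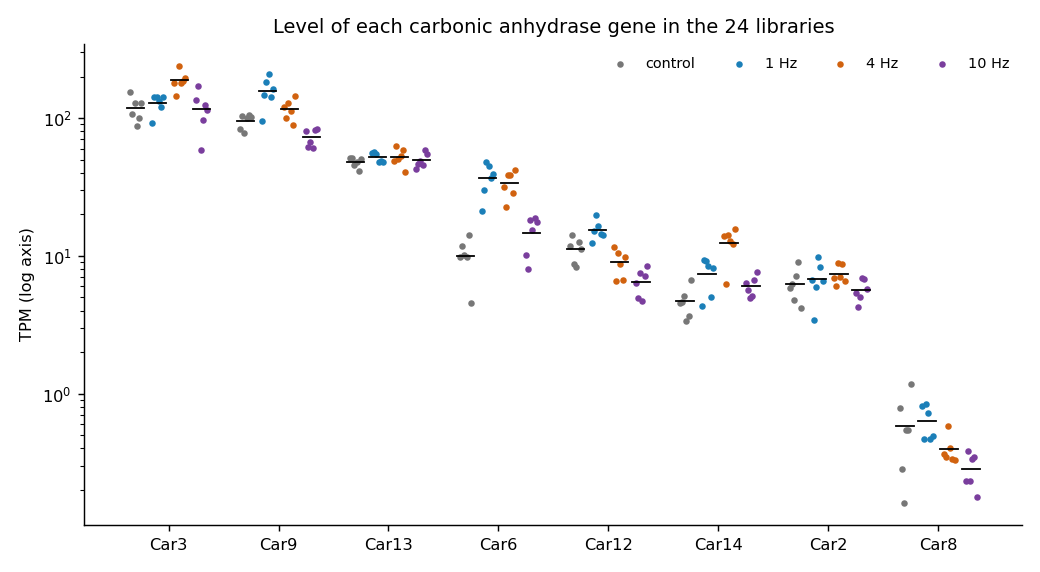
TPM of each carbonic anhydrase gene on a log axis, one point per library coloured by condition (6 per condition) with a black line at the mean. Car3 and Car9 share the top of the range, Car6 spans from 4.56 to 48.0 TPM, and Car8 stays at or below 1.17 TPM; Car4, with 1 read in all, is not drawn.

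Car6 (ENSMUSG00000028972) lies on the minus strand of chromosome 4, from 150271472 to 150285789 in GRCm39, and has 8 exons. None of the 31-base words of its transcripts occurs in transcripts of another gene read in the same direction, the only direction searched. In control, Car6 ranged from 3.98 to 12.8 CPM with a median of 9.33 CPM. At 1 Hz the lowest library was at 19.3 CPM, the median 33.5 CPM and the highest 45.1 CPM. The 4 Hz libraries lay between 22.1 and 39.8 CPM with a median of 36.2 CPM. Every 1 and 4 Hz library thus lay above every control library, which is the pattern for which the gene was picked. At 10 Hz, Car6 ranged from 7.84 to 17.9 CPM with a median of 15.7 CPM, below every 1 and 4 Hz library and overlapping control.

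The log2 fold change of Car6 was 1.92 ± 0.23 (SE) at 1 Hz and 1.91 ± 0.23 at 4 Hz against control, a description for the reason given. Between 4 and 1 Hz, the log2 difference was -0.01 ± 0.20 (edgeR adjusted p = 0.984), with a 95% interval from -0.43 to 0.42. Car6 was picked for a rise in both of these groups, which favours a gene with like levels in them. The small difference is therefore no independent test. At 10 Hz, 4 of 6 libraries lay above every control library, and the log2 fold change of 0.62 ± 0.24 did not pass the test (adjusted p = 0.131); that contrast shares the control libraries with those used for the choice. With the small RNA share as a covariate, the log2 fold change fell to 1.00 ± 0.32 at 1 Hz and 1.11 ± 0.29 at 4 Hz. The nearest tested genes on either side did not share the pattern. Gpr157, an orphan receptor gene 81015 bp away, differed by -0.31 at 1 Hz (adjusted p = 0.35) and -0.31 at 4 Hz (adjusted p = 0.332). Eno1, the glycolytic enolase gene 35284 bp away on the other side, differed by 0.02 at 1 Hz (adjusted p = 0.913) and -0.26 at 4 Hz, a size under the fold threshold (adjusted p = 0.0449).

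Upstream sequences are shown for the secreted enzyme and the 3 expressed transmembrane enzymes, because Car6, Car9 and Car14 were higher at both 1 and 4 Hz and Car12 at 1 Hz only. RefSeq promoters of build GRCm38.p6 were found for 5 of the 9 genes, and the 250 bases before the start are printed 5′ to 3′ in transcript direction. Capitals mark ACGTG, the core of the hypoxia response element, on either strand.
Car6, chr4:150201136-150201385, minus strand: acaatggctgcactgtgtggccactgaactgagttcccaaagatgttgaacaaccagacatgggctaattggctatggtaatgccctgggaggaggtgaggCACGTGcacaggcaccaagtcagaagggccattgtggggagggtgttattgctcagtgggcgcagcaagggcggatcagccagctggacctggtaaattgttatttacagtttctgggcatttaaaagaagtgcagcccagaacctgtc
Car9, chr4:43506776-43507025, plus strand: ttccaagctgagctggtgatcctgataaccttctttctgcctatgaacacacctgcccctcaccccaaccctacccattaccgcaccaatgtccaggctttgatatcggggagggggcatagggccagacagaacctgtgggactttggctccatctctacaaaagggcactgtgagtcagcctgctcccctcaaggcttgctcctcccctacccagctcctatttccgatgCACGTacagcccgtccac
Car14, chr3:95904686-95904935, minus strand: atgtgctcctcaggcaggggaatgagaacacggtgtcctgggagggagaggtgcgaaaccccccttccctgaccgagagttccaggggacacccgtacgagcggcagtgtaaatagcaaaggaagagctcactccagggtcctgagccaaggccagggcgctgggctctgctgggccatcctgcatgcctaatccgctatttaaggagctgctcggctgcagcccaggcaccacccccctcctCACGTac
Car12, chr9:66713436-66713685, plus strand: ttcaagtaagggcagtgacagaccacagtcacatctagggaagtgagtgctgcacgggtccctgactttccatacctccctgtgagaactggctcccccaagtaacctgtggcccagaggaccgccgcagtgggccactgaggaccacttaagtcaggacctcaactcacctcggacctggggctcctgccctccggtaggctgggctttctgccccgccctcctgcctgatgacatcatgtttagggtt
In windows of 300 bases, 250 before and 50 after the start, 4 of these 5 genes held ACGTG, against 19.6% of 32851 RefSeq promoters. The other form of that core, GCGTG, was in 1 of 5 (Car6, 43 bases after the start), against 32.4% of promoters. In Car6 the word began 149 and 148 bases before the start on the opposite strands of 1 palindrome, which also matches the E-box CANNTG, a word in 3 of the 5 windows (Car6, Car9 and Car14) and in 72.3% of all promoters. It began 18 bases before the start in Car9 and 7 bases before it in Car14. Car12 had none in its window, and in Car4, with its single read, the word began 3 bases after the start. The window of Car9 also held TGANTCA, the word bound by AP-1, 77 bases before the start, as did 7.81% of all promoters. These matches describe letters and were not tested as binding sites or for an excess over other promoters.

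Car9 (ENSMUSG00000028463, chromosome 4, 43506966 to 43513729, 11 exons) encodes the membrane enzyme best known as a target of hypoxia-inducible factor. Control libraries ranged from 97.5 to 132 CPM with a median of 123 CPM. At 1 Hz the range was 123 to 276 CPM with a median of 208 CPM, and 5 of 6 libraries lay above every control. Car9 rose at 1 Hz by 0.81 ± 0.15 (log2, SE, adjusted p = 0.000153). At 4 Hz its libraries ran from 125 to 217 CPM with a median of 172 CPM, again with 5 of 6 above every control. The log2 fold change of 0.50 ± 0.14 passed the threshold of 0.5 narrowly (adjusted p = 0.00754). It fell below that threshold without control replicate 1 (0.46) or 3 (0.47), or without 4 Hz replicate 1 (0.49), 3 (0.48) or 6 (0.43), and was 0.40 when scaled by total counts (adjusted p = 0.0214) and 0.28 on the TPM scale (limma adjusted p = 0.16). The 10 Hz libraries were at 85.01 to 109 CPM with a median of 98.7 CPM, all below every 1 and 4 Hz library. For 10 against 1 Hz, the log2 difference of Car9 was -1.08 ± 0.15 (adjusted p = 5.28e-06), where 17.9% of all genes were called. For 10 against 4 Hz it was -0.77 ± 0.14 (adjusted p = 0.000655), where 11.0% of all genes were called. The antisense gene Gm12454 shares 601 exonic bases, 29.7% of the Car9 exon length. The library kit was directional, but the strand setting of the counting is not given, and without it reads there cannot be told apart. Gm12454 itself averaged 7.91 ± 1.85 CPM (SD, n = 6) in control, 8.74 ± 0.75 in the 1 Hz libraries and 13.4 ± 2.53 in the 4 Hz libraries. It differed by 0.13 at 1 Hz (adjusted p = 0.579) and rose by 0.74 at 4 Hz (adjusted p = 0.000764), the comparison in which the Car9 call was narrow. Car9 averaged 118 ± 13.2 CPM in control and 167 ± 33.9 CPM at 4 Hz (SD, n = 6). The part of Gm12454 in the Car9 counts was not tested. Tpm2, 968 bp from Car9, encodes a tropomyosin and rose by 0.64 at 1 Hz (adjusted p = 7.55e-05) and 0.81 at 4 Hz (adjusted p = 3.08e-06).

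Car12 (ENSMUSG00000032373, chromosome 9, 66615426 to 66674186, 10 exons), a transmembrane enzyme of secretory epithelia, followed another course. Its control range was 18.9 to 28.8 CPM with a median of 25.7 CPM. At 1 Hz the libraries lay between 28.5 and 47.7 CPM with a median of 34.3 CPM, and 5 of 6 exceeded every control. Car12 rose at 1 Hz by 0.58 ± 0.16 (log2, SE, adjusted p = 0.00743), a value just under the fold threshold when scaled by total counts (0.496, adjusted p = 0.0167) and under it without 1 Hz replicate 3 (0.47) and on log2(TPM + 1) (0.45, limma adjusted p = 0.0342). At 4 Hz it overlapped the control range, at 16.1 to 30.3 CPM with a median of 23.4 CPM, and the difference of -0.09 ± 0.16 did not pass the test (adjusted p = 0.69). At 10 Hz the range was 10.9 to 19.9 CPM with a median of 15.5 CPM, below every 1 Hz library. Car12 was the only member called at 10 Hz against control, where it fell by 0.64 ± 0.17 on the log2 scale (adjusted p = 0.0267). That call was lost without control replicate 2 (adjusted p = 0.0817) or 5 (0.0603) and without 10 Hz replicate 2 (0.0511) or 4 (0.0719). Between frequencies, Car12 fell by 0.67 ± 0.16 from 1 to 4 Hz (adjusted p = 0.00728) and by 1.22 ± 0.16 from 1 to 10 Hz (adjusted p = 5.82e-06). From 4 to 10 Hz it fell by 0.55 ± 0.17 (adjusted p = 0.0185), which went under the fold threshold or the test without 4 Hz replicate 1 (-0.46) or 3 (-0.50), or without 10 Hz replicate 2 (-0.50) or 4 (-0.47), and was -0.48 when scaled by total counts (adjusted p = 0.032) and -0.41 on log2(TPM + 1) (limma adjusted p = 0.0761).

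Car14 (ENSMUSG00000038526, chromosome 3, 95805079 to 95812646, 11 exons) encodes a membrane enzyme present on the sarcolemma and sarcoplasmic reticulum of muscle. In control it ranged from 2.51 to 5.81 CPM with a median of 4.26 CPM, on 15 to 145 reads per library over all conditions. At 1 Hz it ranged from 4.43 to 8.47 CPM with a median of 7.98 CPM, 4 of 6 libraries lying above every control. The 4 Hz libraries lay at 6.37 to 14.6 CPM with a median of 12.2 CPM and did not overlap control. Car14 rose by 0.76 ± 0.22 at 1 Hz (log2, SE, adjusted p = 0.0101) and by 1.5 ± 0.22 at 4 Hz (adjusted p = 9.43e-06). The step from 1 to 4 Hz, 0.73 ± 0.20, also passed (adjusted p = 0.0173), though not without 1 Hz replicate 5 (adjusted p = 0.0532). At 10 Hz the range of 3.86 to 7.08 CPM, median 5.97 CPM, overlapped control, and the difference of 0.50 ± 0.23 did not pass (adjusted p = 0.202). From 4 to 10 Hz, Car14 fell by 0.99 ± 0.20 (adjusted p = 0.00126). Aph1a, a gamma-secretase subunit gene on the opposite strand, shares 485 exonic bases, 20.3% of the Car14 exon length. Aph1a was called in none of the comparisons with control, at 76.9 ± 5.60 CPM in control and 73.1 ± 4.02 CPM at 4 Hz (SD, n = 6).

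Car3 (ENSMUSG00000027559) lies in a family cluster on chromosome 3, at 14928489 to 14937595, with Car13 200412 bp to one side and Car2 13722 bp to the other. In control it ranged from 89.2 to 165 CPM with a median of 117 CPM. The 1 Hz libraries, at 97.1 to 160.2 CPM with a median of 149 CPM, lay within that range, and the log2 difference of 0.19 ± 0.18 did not pass the test (adjusted p = 0.451, 95% interval -0.20 to 0.57). At 4 Hz the range was 162 to 279 CPM with a median of 216 CPM, above every 1 Hz library and in 5 of 6 cases above every control. Car3 rose at 4 Hz by 0.85 ± 0.18 against control (SE, adjusted p = 0.000649) and by 0.67 ± 0.18 against 1 Hz (adjusted p = 0.017). The latter did not pass on the TPM scale, where it was 0.54 (limma adjusted p = 0.0658). The 10 Hz libraries spread most, from 64.7 to 193 CPM with a median of 129 CPM, and did not differ detectably from control (0.09 ± 0.18, adjusted p = 0.848, 95% interval -0.30 to 0.47). From 4 to 10 Hz, Car3 fell by 0.77 ± 0.18 (adjusted p = 0.0039).

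Of the other cytosolic members, Car13 (ENSMUSG00000027555, chromosome 3, 14706783 to 14728077) had the smallest spread of the 8 tested members in every condition, with coefficients of variation of 7.5% in control, 6.9% at 1 Hz, 12.1% at 4 Hz and 10.2% at 10 Hz. Its medians were 71.5 CPM in control, 80.7 CPM at 1 Hz, 87.7 CPM at 4 Hz and 76.0 CPM at 10 Hz. The difference of 0.30 ± 0.08 at 4 Hz had an adjusted p of 0.00538 in the edgeR test but lay under the fold threshold. Car2 (ENSMUSG00000027562, chromosome 3, 14951317 to 14967568), the fast enzyme of red cells, kidney and osteoclasts, had medians of 6.68 CPM in control, 6.98 CPM at 1 Hz, 8.06 CPM at 4 Hz and 6.10 CPM at 10 Hz. The ranges of Car2 overlapped between all conditions and no comparison passed the test. Its 95% interval against control was -0.39 to 0.31 for 1 Hz and -0.10 to 0.59 for 4 Hz. Car8 (ENSMUSG00000041261, chromosome 4, 8141533 to 8239088) rested on 3 to 33 reads per library. Its range was 0.436 to 2.93 CPM in control, 1.22 to 2.25 CPM at 1 Hz, 0.956 to 1.70 CPM at 4 Hz and 0.472 to 1.08 CPM at 10 Hz. The only Car8 call was between 10 and 1 Hz, whose libraries did not overlap, where it fell by 1.17 ± 0.34 (adjusted p = 0.00833).

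**Figure D2:**
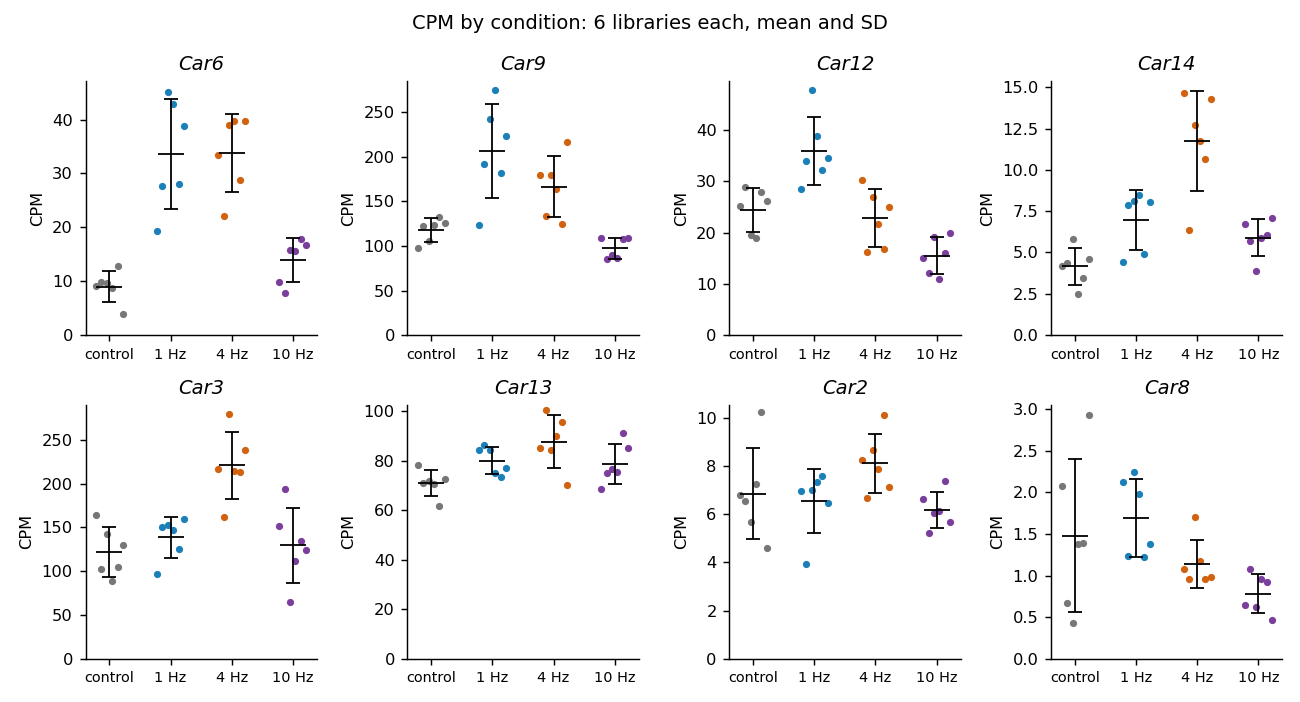
CPM of 8 carbonic anhydrase genes by condition on axes that start at 0; points are the 6 libraries of a condition, and the black bar and whiskers are mean and SD. Car6 stands clear of control at 1 and 4 Hz, Car14 and Car3 are highest at 4 Hz (medians 12.2 and 216 CPM), Car12 is highest at 1 Hz (median 34.3 CPM) and lowest at 10 Hz, and Car13 varies least.

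Counted over the chosen members, 3 of 7 tested at 1 Hz against control were upregulated (Car9, Car12 and Car14) and none was downregulated. Of all 13318 tested genes, 18.3% were called in either direction and 9.34% were higher. At 4 Hz against control the count was 3 of 7 (Car3, Car9 and Car14), again all higher, with 20.1% of all genes called and 10.5% higher. Against control at 10 Hz it was 1 of 8, with 1.86% of all genes called and 0.623% lower. Between 4 and 1 Hz, 3 of 8 members differed (Car3 and Car14 higher, Car12 lower), where 3.0% of all genes were called, 1.59% higher and 1.4% lower. From 1 to 10 Hz, 3 of 7 fell (Car8, Car9 and Car12), beside 17.9% of all genes called and 8.49% lower, and from 4 to 10 Hz 4 of 7 fell (Car3, Car9, Car12 and Car14), beside 11.0% called and 5.64% lower. These comparisons share libraries, so their counts are not separate evidence. The members were chosen with earlier results of these data known, so the counts are no test of the family. The other 3 tested carbonic anhydrase genes were not called in any of these comparisons. In bulk RNA, fewer cells of a type and less RNA per cell cannot be told apart.

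With the small RNA share as a covariate, no tested member passed at 1 Hz against control, where 1 of 13318 genes did (0.00751%). Car9 was then at 0.46 ± 0.24 (adjusted p = 0.535), Car14 at 0.44 ± 0.36 (adjusted p = 0.738) and Car12 at 0.18 ± 0.26 (adjusted p = 0.885). At 4 Hz against control Car3 (1.05 ± 0.28, adjusted p = 0.0432) and Car14 (1.21 ± 0.33, adjusted p = 0.0474) still passed, beside 2.15% of all genes, while Car9 at 0.19 ± 0.22 did not (adjusted p = 0.697). Car12 at 10 Hz against control (-0.67 ± 0.16, adjusted p = 0.016) and the 3 members called between 4 and 1 Hz also passed, beside 1.7% and 3.07% of all genes. No member passed for 10 against 1 Hz or 10 against 4 Hz in that fit, where 0.871% and 0.0% of all genes did. The small RNA share and the light condition cannot be fully told apart in this design.

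**Figure D3:**
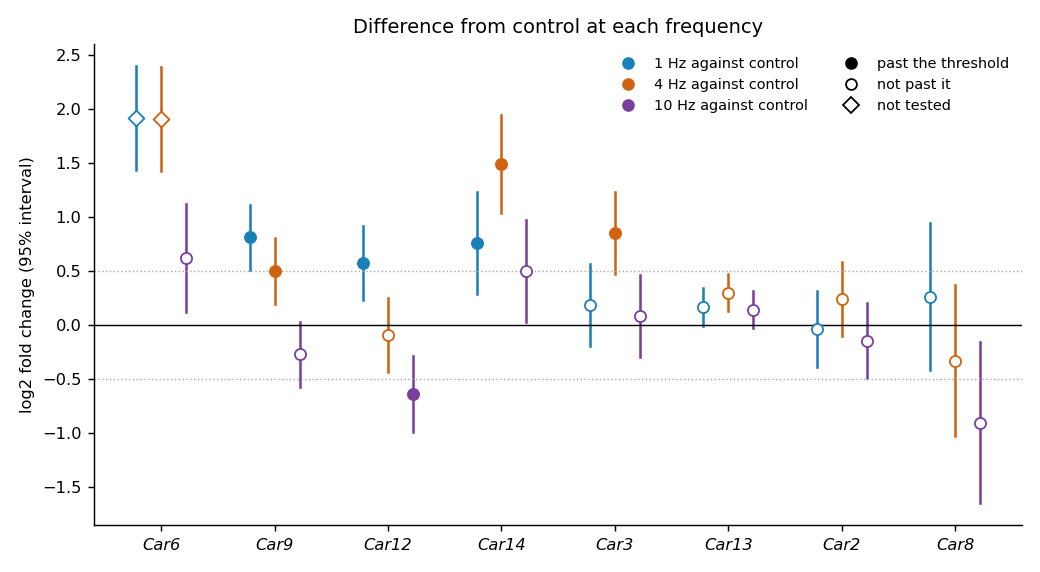
Log2 fold change against control of each member at 1, 4 and 10 Hz, with 95% intervals from the edgeR fit; filled circles passed adjusted p and the 0.5 fold threshold (dotted lines), open circles did not, and diamonds are the untested values of Car6. Car9, Car12 and Car14 are filled at 1 Hz, Car3, Car9 and Car14 at 4 Hz and Car12 alone, below 0, at 10 Hz.

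Added up per library, the 9 genes gave 294 ± 20.4 TPM in control, 405 ± 66.8 TPM at 1 Hz, 419 ± 49.5 TPM at 4 Hz and 272 ± 39.3 TPM at 10 Hz (SD, n = 6). Without Car6 the sums were 284 ± 21.6, 368 ± 57.8, 385 ± 43.4 and 257 ± 41.1 TPM in the same order, and the 4 Hz libraries (327 to 452 TPM) lay above all controls (255 to 312 TPM). The share of transcripts for the membrane-bound enzymes was 37.9% ± 5.03 in control, 44.0% ± 3.65 at 1 Hz, 32.7% ± 3.32 at 4 Hz and 31.5% ± 4.61 at 10 Hz. The ratio of Car9 to Car3 TPM separated the 2 lower frequencies, at 1.02 to 1.56 in the 1 Hz libraries and 0.484 to 0.739 in the 4 Hz libraries. Car3 CPM alone also separated these libraries. Car9 was not called for 4 against 1 Hz (-0.31 ± 0.14, SE, edgeR adjusted p = 0.158). In control the same ratio ran from 0.535 to 1.13 and at 10 Hz from 0.359 to 1.13. These sums, shares and ratios were not tested.

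**Figure D4:**
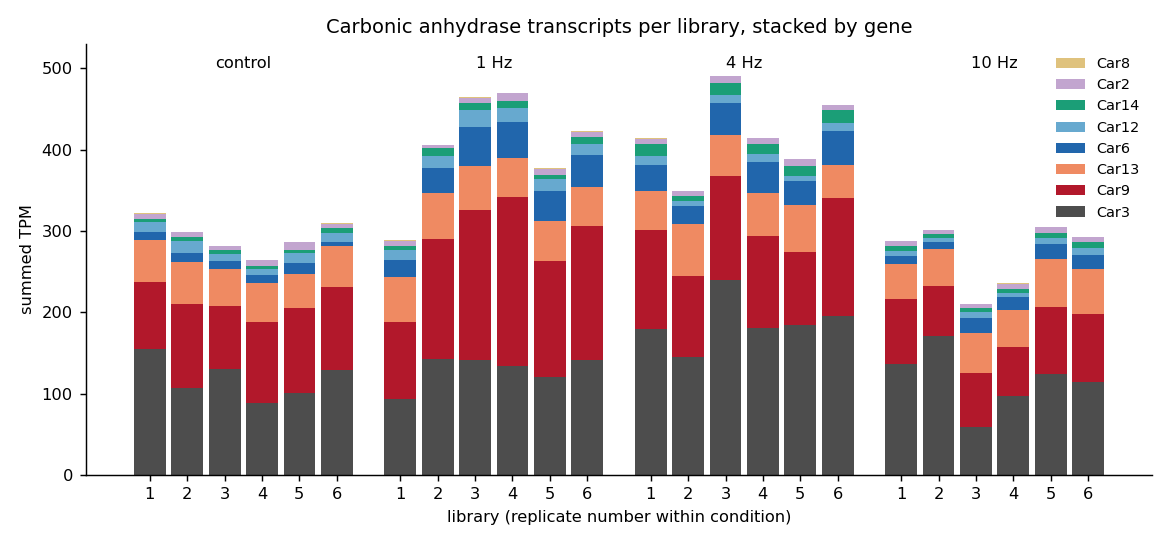
Summed TPM of the carbonic anhydrase genes in each of the 24 libraries, stacked by gene and grouped by condition. Car3 and Car9 fill most of every bar; the bars average 294 TPM in control, 405 TPM at 1 Hz, 419 TPM at 4 Hz and 272 TPM at 10 Hz.

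The 7 remaining carbonic anhydrase genes showed no call in any of the 6 comparisons. Only Car5b, the mitochondrial isozyme, Car11, a relative without catalytic activity, and Car15, a lipid-anchored enzyme, passed the low-count filter. Car5b averaged 15.7 ± 2.39 CPM in control and 14.8 ± 0.96 CPM at 1 Hz, and Car11 averaged 5.00 ± 1.24 and 5.35 ± 0.69 CPM (SD, n = 6). Car15 averaged 0.922 ± 0.411 CPM in control and 1.68 ± 0.661 CPM at 10 Hz, a log2 difference of 0.81 ± 0.35 that did not pass (adjusted p = 0.18). Car15 is uncertain because 61.3% of its 31-base words occur elsewhere, chiefly in the overlapping gene Gm20518. Car1, the red cell isozyme, averaged 0.636 CPM and Car7 0.514 CPM, while Car5a had 6 and Car10 had 3 reads in all.

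Genes that work beside these enzymes were counted from lists. Of 13 tested genes for bicarbonate, proton and lactate transport, 1 rose at 1 Hz, 1 rose and 1 fell at 4 Hz and none was called at 10 Hz against control, where 18.3%, 20.1% and 1.86% of all genes were called, so the list held no excess of calls. Slc4a4, the sodium bicarbonate cotransporter, rose by 1.30 ± 0.33 at 1 Hz (adjusted p = 0.00344) and 1.02 ± 0.33 at 4 Hz (adjusted p = 0.0166), from 2.63 ± 0.713 CPM in control to 6.36 ± 1.65 and 5.34 ± 1.95 CPM. Slc4a8, a sodium-driven chloride bicarbonate exchanger, fell at 4 Hz by 0.84 ± 0.12 (adjusted p = 5.75e-06), from 24.02 ± 1.90 to 13.4 ± 1.97 CPM. The median log2 fold change of this list was 0.07 at 1 Hz, -0.05 at 4 Hz and -0.12 at 10 Hz, against medians of -0.01, -0.01 and -0.01 for all genes.

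Of 18 tested hypoxia-inducible targets, a list that leaves out Car9, 3 rose and 1 fell at 1 Hz, 1 rose at 4 Hz and none was called at 10 Hz against control. The share called at 1 Hz was near the 18.3% of all genes called, where 9.34% of all genes were higher. The share at 4 Hz was below the 20.1% of all genes called, where 10.5% were higher. Vegfa, the angiogenic growth factor, rose by 0.65 ± 0.13 at 1 Hz (adjusted p = 0.000337) and 0.71 ± 0.13 at 4 Hz (adjusted p = 0.000101). Ndrg1, a stress-responsive gene, rose at 1 Hz by 0.64 ± 0.11 (adjusted p = 8.21e-05). Ankrd37 fell at 1 Hz by 0.53 ± 0.16 (adjusted p = 0.0105). The list median was 0.17 at 1 Hz, 0.18 at 4 Hz and -0.12 at 10 Hz. The remaining 14 genes at 1 Hz and 17 at 4 Hz were not called. For 10 against 1 Hz, 6 of 18 fell and none rose, with a list median of -0.33, beside 8.49% of all genes lower. For 10 against 4 Hz, 2 fell and none rose, with a median of -0.27, beside 5.64% of all genes lower. With the small RNA share as a covariate, 0.871% and 0.0% of all genes were called in these comparisons.

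Contractile genes of both fiber classes were called in larger numbers, beside 18.3% of all genes at 1 Hz, 20.1% at 4 Hz and 1.86% at 10 Hz. Against control, Pax7 was also called at 1 and 4 Hz, and Mki67, Top2a and Myf5 at 4 Hz only, as given above. Of 8 tested slow fiber genes, 7 rose at 1 Hz, 6 at 4 Hz and 1 at 10 Hz, with medians of 0.60, 0.95 and 0.27. Myl2 rose by 1.53 ± 0.23 at 4 Hz (adjusted p = 1.68e-05), Myh7, the slow myosin heavy chain, by 1.21 ± 0.20 at 1 Hz (adjusted p = 7.55e-05) and Tnni1 by 1.06 ± 0.15 at 4 Hz (adjusted p = 5.43e-06). Of 10 fast fiber genes, 9 rose at 1 Hz, 10 at 4 Hz and 1 at 10 Hz, with medians of 0.84, 0.85 and 0.28. Myh2 rose by 1.46 ± 0.19 at 4 Hz (adjusted p = 2.35e-06), Tnni2 by 1.23 ± 0.13 at 4 Hz (adjusted p = 3.05e-07) and Myh1 by 1.21 ± 0.22 at 1 Hz (adjusted p = 0.000164). Car3, an abundant protein of slow fibers, was called at 4 Hz but not at 1 Hz, where 9 of 10 fast and 7 of 8 slow genes were called. With the small RNA share as a covariate, none of the listed genes was called at 1 Hz against control, and 5 fast and 3 slow genes, all higher, were called at 4 Hz. In that fit 1 transport gene and 1 hypoxia target (Egln1) were called at 4 Hz, both lower.

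Likeness to Car6 was measured as Pearson r of log2 CPM over the 24 libraries, which share their 4 conditions, among 13317 other tested genes. The closest were Slc9a9 (r = 0.947), an endosomal sodium proton exchanger, Cth (0.945), a cysteine synthesis enzyme, Scpep1 (0.933), Hspa5 (0.932), the main chaperone of the endoplasmic reticulum, and Ttl (0.93). After condition means were taken away, r with Car6 was still 0.742 for Slc9a9, 0.748 for Cth, 0.671 for Scpep1, 0.762 for Hspa5 and 0.718 for Ttl. The highest r within conditions belonged to other genes, Sik2 (0.803), Egln1 (0.796), Platr3 (0.791), Nt5dc3 (0.786) and Angptl6 (0.785). Within the family, Car9 (0.76, rank 647) and Car14 (0.721, rank 900) were the most like Car6 over all libraries. That measure includes the rise for which Car6 was picked. After condition means were taken away, Car9 had 0.538 (rank 376), Car2 0.474, Car12 0.468 and Car14 0.314 (rank 2028).

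Likeness to Car3 was led by Orc6 (0.858), Xlr3a (0.845), Myl2 (0.845), Car14 (0.835) and Dhrs11 (0.821) over all libraries. Another carbonic anhydrase thus ranked 4 of 13317 for Car3, and within conditions Car14 ranked 8 with r = 0.708. The 5 closest genes within conditions were Orc6 (0.799), Mybpc1 (0.772), the slow myosin-binding protein, Dhrs11 (0.75), Myl2 (0.74) and Ptma (0.738). Car3 and Car6 themselves had r = 0.455 over all libraries and -0.04 within conditions. These correlations are descriptions of these libraries.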

How the data were processed

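RNA of optogenetic C2C12 monolayers was sequenced as paired ends, and the authors deposited salmon estimated counts and TPM per gene for 24 libraries, 6 each of control, 1, 4 and 10 Hz. Per the labels, poly(A) selection was used, with ribodepletion for low-input samples, and the processing notes name STAR, Salmon, BWA 0.7.12-r1039 and bedtools 2.25.0 with GRCm39 among the builds; by the study's methods the kit was directional, BWA-MEM mapping and bedtools gave quality metrics, and an nf-core pipeline with Ensembl annotation processed the reads. The annotation release and the strand setting of the counting are not given in the sources used here. Groups came from sample titles, and replicates are separate tissues of 1 cell line.

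Estimated counts were rounded and tested with edgeR 4.0.16 (R 4.3.3): TMM scaling, filterByExpr (13318 genes, 99.8% of counts), and a quasi-likelihood fit of all 24 libraries. Genes were called at a Benjamini-Hochberg adjusted p under 0.05 over all genes tested and an absolute log2 fold change over 0.5. SE is the log2 fold change over the root of F, and 95% intervals use 20 degrees of freedom. CPM uses TMM-scaled totals. DESeq2 1.42.0 and limma 3.58.1 on log2(TPM + 1) served as alternatives, with other scalings, filters and covariates and each library left out in turn. Totals of 4085578 to 15194554 counts set the counting precision. In data simulated for 1 Hz against control over 13318 genes, 82 of 100 genes changed by 1 and 59 of 100 changed by 0.6 (absolute log2) were recovered. No other gene was changed there, and 6 unchanged genes were called. The changed share was far below the 18.3% of genes called in the real contrast, so the rates may differ there. Recovery at 0.6 also depends on the fold threshold of 0.5. In 60 pairs of libraries of 1 condition, the lowest chi-square per gene was 3.18, so no such pair was 1 library deposited again; other pairs were not compared.

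The family members, gene lists and markers were chosen with earlier results of these data known. Named genes were all members, other carbonic anhydrases with counts, at most 3 genes of each list with the largest change among those called at 1 or 4 Hz against control, the 5 genes most like Car6 and Car3 by each measure (predicted genes passed over), and the neighbours of Car6. Tpm2, Gm12454, Aph1a, Gm20518, Egln1 and the markers named were added for position or content. Positions are from GENCODE M39 on GRCm39 and promoters from RefSeq on GRCm38.p6.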

Additional observations from a re-analysis of the deposited data

Results flagged for a closer look

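Among 32 sets of 6 libraries (8 genes in 4 conditions), 2 had a library set apart from the others by a gap larger than Dixon's 95% critical share of the set's whole range, and chance gives about 1 in 20. In the first, Car2 was at 3.95 CPM in 1 Hz replicate 2, while the other 1 Hz libraries ran from 6.48 to 7.60 CPM. In the second, Car8 was at 1.70 CPM in 4 Hz replicate 3, while the others ran from 0.956 to 1.17 CPM.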

How the results depend on the processing

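Of 72 recounts of called members under another setting, 67 stayed within 1.5 times the value reported. The exceptions came from 2 settings. With the small RNA share as a covariate, the count was 0 at 1 Hz against control, 0 for 10 against 1 Hz and 0 for 10 against 4 Hz, and over all genes the calls went from 2441 to 1, from 2390 to 116 and from 1460 to 0 in those comparisons and from 2676 to 287 at 4 Hz against control. With limma on log2(TPM + 1) and no filter, it was 1 at 1 Hz against control and 1 for 4 against 1 Hz. The cause was not tested. Leaving out 1 library gave 2 to 3 members at 1 Hz, 2 to 3 at 4 Hz and 0 to 1 at 10 Hz against control, 2 to 3 for 4 against 1 Hz, 3 to 3 for 10 against 1 Hz and 3 to 4 for 10 against 4 Hz. By total counts, 2 members were called at 1 Hz, 2 at 4 Hz and 3 for 10 against 4 Hz, without Car12, Car9 and Car12 respectively. DESeq2 and edgeR both gave 3, 3, 1, 3, 3 and 4 in the same order.

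No replicate number pairs the samples in the sources, and the mean correlation of same-numbered libraries ranged from -0.0027 to 0.12. With the replicate number as a block, the counts were 3, 2, 1, 3, 3 and 4; the one change was Car9 at 4 Hz against control, at 0.49.

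Signs changed only in differences that did not pass the test. For Car2 at 1 Hz against control the log2 value was 0.000066 with no low-count filter, 0.10 on log2(TPM + 1) with or without a filter and 0.10 on log2(TPM + 0.1), and -0.11 to 0.10 with 1 library left out. Car3 at 10 Hz against control was -0.060 on log2(TPM + 1) with or without a filter, -0.061 on log2(TPM + 0.1) and -0.064 to 0.23 with 1 library left out, and for 10 against 1 Hz it was -0.25 to 0.039. Car6 for 4 against 1 Hz was 0.016 at a minimum mean of 5 CPM, 0.0062 with DESeq2, 0.0041 with the 12 libraries compared, 0.020 with the replicate block, 0.11 with the covariate and -0.12 to 0.10 with 1 library left out. Car13 for 4 against 1 Hz was -0.0017 or -0.0019 on TPM, and for 10 against 1 Hz it was 0.015 by total counts, 0.0078 at a minimum mean of 5 CPM, 0.072 with the covariate and -0.071 to 0.0074 with 1 library left out. With the covariate, Car8 at 4 Hz against control was 0.13, and for 10 against 1 Hz Car2 was 0.11 and Car14 0.037. Reads per library were fewest for Car8 (3 to 33), Car2 (16 to 103) and Car14 (15 to 145), so small differences in these genes may not be detectable at this depth.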
